A study of Caenorhabditis elegans with 96 samples.

Results

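The genes of the nuclear hormone receptor (NHR) family of Caenorhabditis elegans were followed in RNA sequencing counts of whole worms. The members were the genes whose symbols begin nhr- in the WBcel235 annotation together with daf-12, 269 genes among the 46904 gene identifiers counted, and all of them were annotated as protein coding. Of these, 190 had at least 10 counts in 4 or more of the 96 libraries and are described here, against 16570 genes of the whole series that met the same minimum. The other 79 are counted in the closing section. The choice of members used symbols and a count minimum only, and no difference between groups.

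The libraries came from 2 parental strains and from recombinant inbred advanced intercross lines (RIAILs) made by crossing them. N2, the laboratory reference strain, had 4 libraries, CB4856, a wild isolate from Hawaii, had 7, and each of 85 lines had 1. All 96 carried the same treatment label, Cntrl, and the protocol was the same for all: eggs from bleached adults kept on Escherichia coli OP50 hatched without food, and the larvae then grew on E. coli HT115 until they were collected at the fourth larval stage, L4. The titles place the libraries in 7 batches, numbered 2, 3, 4, 6, 7, 8 and 9, with CB4856 once in each, N2 once in batches 3, 6, 8 and 9, and 7 to 19 lines in each. Each library is a pool of worms, and each line sat in 1 batch only, so a line and its batch cannot be told apart. Nothing in the labels says that the libraries of a parent came from separate cultures, so p-values between the parents measure the spread between these libraries, which may be technical.

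Nuclear hormone receptors are transcription factors that bind DNA through a zinc finger domain, and many of them switch target genes when a small lipophilic molecule, such as a steroid or a fatty acid, occupies their ligand-binding domain. The family is greatly expanded in nematodes, mostly by duplication of a gene related to the vertebrate receptor HNF4, and most worm members have no known ligand. The best studied worm receptors control entry into the dauer stage and lifespan (DAF-12), fat metabolism and the response to fasting (NHR-49), the breakdown of propionate (NHR-10 and NHR-68), and the response to toxins (NHR-8).

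The genes lay mostly on chromosome V. It held 167 of the 269 members and 122 of the 190 described ones, while chromosome IV held 33 and 27, X 24 and 18, I 22 and 7, II 15 and 11, and III 8 and 5. Gene counts per library ranged from 22069702 to 24001627, so that 3 counts, the upper limit that a count of 0 allows, corresponded to 0.125 to 0.136 CPM, the gene's share of the counts in all genes scaled to 1e+06. This limit covers counting error only. A mean of 223 ± 4.27 members (SD, n = 96) had a count in a library. All members together took 1613 ± 135 CPM (SD, n = 96), with a range of 1391 to 2196. The share of reads that did not map was 0.400 to 0.517% in N2 and 0.544 to 0.697% in CB4856, with no overlap, and its part in differences between the parents was not tested. The labelled stage was L4, yet the yolk gene vit-2, which the intestine of adult hermaphrodites expresses, was at 6027 to 24450 CPM in the lines, and the cuticle collagen gene bli-1 spanned 2.20 to 63.2 CPM among them.

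Receptor transcripts were mostly scarce, and a few metabolic regulators stood above the rest. Over the 96 libraries, 42 of the 190 described members had a mean of at least 10 CPM, 112 had 1 to 10 CPM and 36 had less than 1 CPM. Compared per kilobase of exon, as levels between genes must be, the described members ran from 0.0787 to 62.3 CPM per kilobase with a median of 2.29. The highest was nhr-49, the regulator of fat desaturation and fasting genes, at 62.3 CPM per kilobase. It was followed by nhr-114, which acts in methionine metabolism and in tolerance of the bacterial diet, at 49.1 CPM per kilobase. Next came nhr-86, a sensor of a bacterial metabolite in pathogen defence, at 28.3 CPM per kilobase, and nhr-31, which acts in the excretory cell, at 24.5. The last of the 6 highest were nhr-68, a regulator of propionate breakdown, at 23 CPM per kilobase and nhr-66, a partner of NHR-49, at 22.1. These 6 genes held 27.6% of the summed CPM of the family. The lowest described member was nhr-127, at 0.0787 CPM per kilobase.

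**Figure D1:**
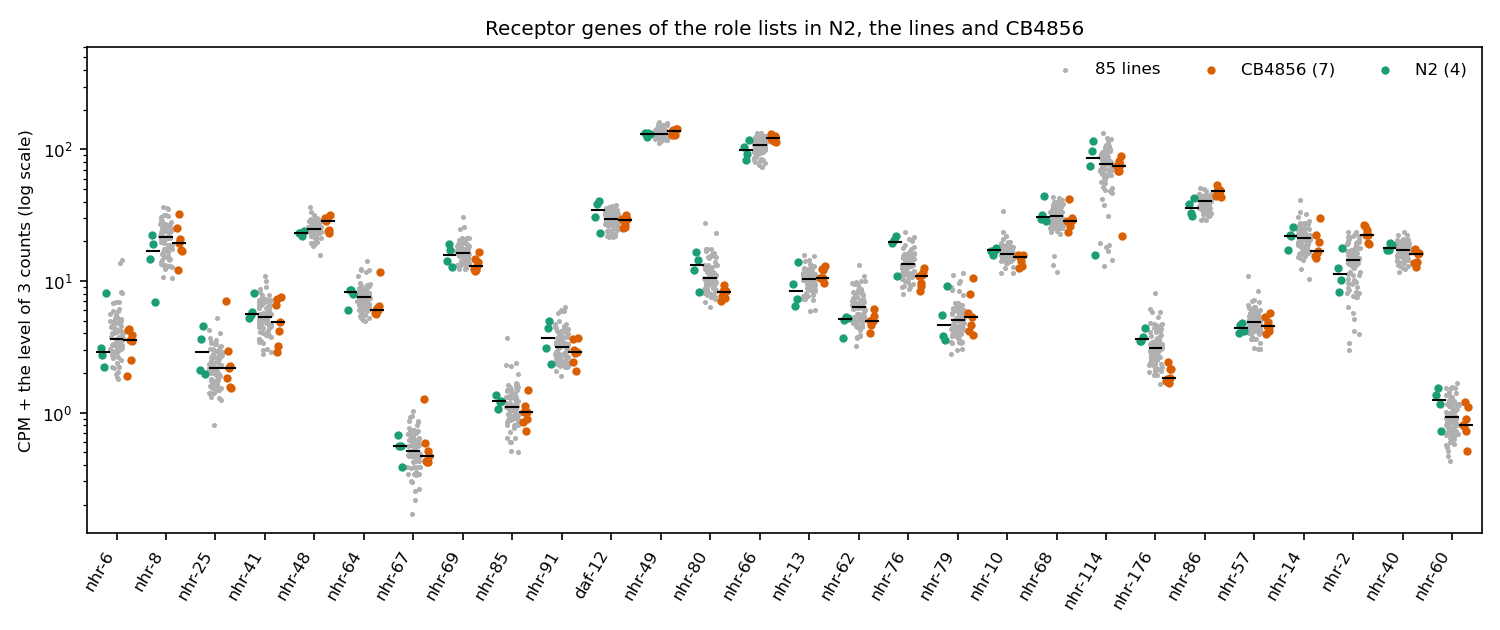
CPM plus the level of 3 counts, on a log scale, of the members in the role lists in N2 (4 libraries, green), the 85 lines (grey) and CB4856 (7 libraries, orange); each point is a library and each bar a median. nhr-49 sits between 112 and 163 CPM in all lines, whereas nhr-114 spans 12.8 to 133 CPM and nhr-67 lies below 1 CPM in every line.

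The parents were compared first, to find receptors whose level differed between the strains that founded the lines. Of 178 members tested, 32 differed at an adjusted p under 0.05 in edgeR's quasi-likelihood test, which is 18% of the members. The same threshold called 33.9% of all 14858 genes tested. The 19 members higher in N2 were 10.7% of the members, against 17.9% of all genes, and the 13 higher in CB4856 were 7.3%, against 16% of all genes. Among calls of at least 2-fold, 7 members were higher in N2 and 3 in CB4856, together 5.62% of the members, where 15.3% of all genes passed, 11.6% toward N2 and 3.69% toward CB4856. Before adjustment, 47 members had a p under 0.05 (edgeR), or 26.4%, against 44.4% of all genes. The median log2 ratio of N2 to CB4856 was 0.10 over the members and 0.03 over all genes. With batch as a replicate block, 15 of the 178 members were called, while the block called 14.9% of all genes. Of the 15, 9 were higher in N2 and 6 in CB4856, and all were among the 32. Without both libraries of batch 9 there were 50 of 180 members tested, of which 29 were among the 32, against 47.9% of all genes. The parents also differed in whole-library measures. The score on component 1, the main axis of variation among the lines, was -54.2 to -6.79 in CB4856 and 8.81, 42.6 and 42.1 in N2 of batches 3, 6 and 8, with -50.1 in N2 of batch 9. The sperm index, the mean level of 9 sperm genes, was -1.83 to -0.40 in CB4856 and 0.29, 1.05 and 0.94 in the same 3 N2 libraries, with -0.89 in that of batch 9. With component 1 as a covariate 22 of the 178 members were called, 20 of them among the 32, against 16.9% of all genes. In whole worms, fewer cells of a type and less RNA per cell cannot be told apart.

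Receptors that nematodes share with flies and vertebrates were seldom called between the parents, where 33.9% of all genes were called. Of 11 in this list, none was higher in N2 and 1, nhr-48, was higher in CB4856 in edgeR, also at an unadjusted p under 0.05 and in DESeq2. The median log2 ratio of the list was 0.20, against 0.03 over all genes. Other fits called further members of the list. nhr-8 passed with component 1, or the moult index defined below, as a covariate (log2 ratio -1.17 and -0.75, adjusted p 0.0145 and 0.0134, edgeR). nhr-69 passed without both libraries of batch 9 (log2 ratio 0.34, adjusted p 0.0307, edgeR). The steroid receptor gene daf-12 (chromosome X, 10635908 to 10666875), whose product binds dafachronic acids and decides between dauer arrest and reproductive growth, was at 30.5, 38.3, 40.6 and 23.1 CPM in N2 of batches 3, 6, 8 and 9. In CB4856 it ran from 25.1 to 31.6 CPM with a median of 28.9, so the N2 range enclosed that of CB4856. Its log2 ratio was 0.20 ± 0.13 (SE; adjusted p 0.262, edgeR), and 0.33 without the N2 library of batch 9 (adjusted p 0.0170, edgeR). nhr-48, a relative of daf-12, was at 21.8 to 23.7 CPM in N2 and 23 to 31.4 CPM in CB4856, a log2 ratio of -0.29 ± 0.10 (SE; adjusted p 0.0446, edgeR), and missed the threshold in 14 of the alternative fits, with an adjusted p up to 0.206 with component 1 as a covariate (edgeR). nhr-6, related to the vertebrate NR4A receptors and required for the spermatheca, was at 2.95, 2.61, 2.10 and 7.98 CPM in N2 and 1.77 to 4.17 CPM in CB4856. Only its N2 library of batch 9 lay above the CB4856 range, and its log2 ratio of 0.22 turned to -0.39 without that library. nhr-25, the worm Ftz-F1 homolog that acts in moulting and in the epidermis, was at 1.83 to 4.4 CPM in N2 and 1.41 to 2.82 CPM in 6 CB4856 libraries, with 6.93 CPM in that of batch 2. nhr-67, the homolog of the fly tailless gene, was at 0.255 to 0.547 CPM in N2 and 0.295 to 1.14 CPM in CB4856.

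Receptors of lipid metabolism were called in both directions, where 33.9% of all genes were called. Of 7, nhr-80 and nhr-76 were higher in N2 and nhr-66 was higher in CB4856, with a median log2 ratio of -0.11 for the list. nhr-76 (chromosome IV, 627537 to 633963), which acts in fat loss driven by serotonin, was at 19.2, 20.4, 21.8 and 10.9 CPM in N2 and 8.29 to 12.5 CPM in CB4856. The N2 library of batch 9 lay inside the CB4856 range and the other 3 lay above it; the log2 ratio was 0.76 ± 0.18 (SE; adjusted p 0.00779, edgeR). nhr-80 (chromosome III, 11985 to 14869), a partner of NHR-49 in fat desaturation, was at 12, 16.5, 14.4 and 8.15 CPM in N2 and 6.89 to 9.17 CPM in CB4856. Again only batch 9 overlapped, with a log2 ratio of 0.65 ± 0.17 (SE; adjusted p 0.0125, edgeR). nhr-66 was at 83.1 to 118 CPM in N2 and 113 to 131 CPM in CB4856, a log2 ratio of -0.32 ± 0.09 (SE; adjusted p 0.0137, edgeR). With the replicate block these 3 calls had adjusted p-values of 0.0975, 0.0839 and 0.0895 in edgeR. With component 1 as a covariate the ratios were 0.34, 0.29 and -0.17, and the adjusted p-values 0.109, 0.208 and 0.0822 (edgeR). nhr-49 itself (chromosome I, 9869651 to 9874680) was at 124 to 134 CPM in N2 and 129 to 144 CPM in CB4856, with a log2 ratio of -0.11 ± 0.04 (SE; adjusted p 0.0695, edgeR). It passed in DESeq2, with a log2 ratio of -0.13 and an adjusted p of 0.0161. nhr-13 of this list was not called (log2 ratio -0.32) but passed without the N2 library of batch 9 (-0.58, adjusted p 0.00815, edgeR).

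The genes of propionate and methionine metabolism did not pass the test. nhr-10, nhr-68 and nhr-114 had log2 ratios of 0.18 ± 0.10, 0.14 ± 0.15 and 0.11 ± 0.45 (SE), with adjusted p-values of 0.175, 0.496 and 0.876 in edgeR. nhr-114 (chromosome V, 4187202 to 4190008) was at 75.1, 97.9 and 115.2 CPM in N2 of batches 3, 6 and 8 but at 15.6 CPM in batch 9, and at 68 to 88.6 CPM in 6 CB4856 libraries but at 21.7 CPM in that of batch 9. The library of batch 9 was the lowest in both strains.

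Among receptors of xenobiotic, hypoxia and pathogen responses, 1 of 5 was higher in each parent, against 17.9% of all genes in N2 and 16% in CB4856. nhr-176 (chromosome V, 16071325 to 16072738), whose product binds the drug thiabendazole and induces a cytochrome P450 gene, was at 3.37, 3.38, 3.63 and 4.25 CPM in N2 and 1.56 to 2.30 CPM in CB4856. The ranges did not overlap and N2 was higher by 0.95 ± 0.16 (log2, SE; adjusted p 0.00124, edgeR). nhr-86 (chromosome V, 2061106 to 2066850) was at 31.1 to 42.5 CPM in N2 and 43.5 to 53.2 CPM in CB4856, again without overlap, with a log2 ratio of -0.43 ± 0.09 (SE; adjusted p 0.00499, edgeR) that had an adjusted p of 0.0566 with the replicate block (edgeR) and was -0.28 with component 1 as a covariate. nhr-8, nhr-57 and nhr-14 had adjusted p-values of 0.310, 0.499 and 0.617 in edgeR, and nhr-8 passed with component 1 as a covariate (log2 ratio -1.17, adjusted p 0.0145, edgeR). In the development list, nhr-2 was called and nhr-40 and nhr-60 were not. nhr-2 (chromosome I, 5818474 to 5821134), an early embryonic gene, was at 12.4, 8.08, 9.96 and 17.7 CPM in N2 and 19.1 to 26.5 CPM in CB4856. The highest N2 library lay just below the lowest of CB4856, and the log2 ratio was -0.96 ± 0.19 (SE; adjusted p 0.00340, edgeR).

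The largest differences in counts between the parents were in members that are little studied and weakly expressed. Reads of both parents were counted on the WBcel235 build, and N2 is the reference strain. Reads of CB4856 alleles that differ from the reference may go uncounted, and the part of this in the ratios was not tested. nhr-74 (chromosome I, 11429014 to 11432156) had 41, 39, 44 and 51 counts in N2, or 1.67 to 2.17 CPM. In CB4856 it had 9 and 5 counts in batches 2 and 3, 1 in batch 7 and 0 in the other 4 libraries. The strains did not overlap, with a log2 ratio of 4.24 ± 0.71 (SE; adjusted p 0.00119, edgeR), a size that depends on the prior count because most CB4856 libraries were at 0. nhr-116 (chromosome V, 16912234 to 16915350) was at 1.73, 1.88, 2.22 and 1.23 CPM in N2 and 0.211 to 0.511 CPM in CB4856, a log2 ratio of 2.40 ± 0.26 (SE; adjusted p 4.09e-05, edgeR). nhr-123 (chromosome V, 451451 to 453759) was at 0.934 to 1.54 CPM in N2 and 0.0845 to 0.391 CPM in CB4856, a log2 ratio of 2.35 ± 0.32 (SE). Neither gene overlapped between the strains. The other members among the 8 largest toward N2 were nhr-225 (log2 ratio 1.77), nhr-147 (1.40), nhr-238 (1.38), nhr-210 (1.36) and nhr-176. nhr-147 shares 15% of its exon bases with nhr-149, so its counts are uncertain.

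Toward CB4856, nhr-155 (chromosome V, 539460 to 541485) had the largest ratio. It had 0, 4, 3 and 0 counts in N2 of batches 3, 6, 8 and 9 and 7 to 27 counts in CB4856, a log2 ratio of -3.11 ± 0.67 (SE; adjusted p 0.00473, edgeR). The highest N2 library, at 0.171 CPM, lay below the lowest CB4856 library, at 0.298 CPM. nhr-54 (chromosome V, 16503944 to 16505928) was at 0.758, 1.07, 0.684 and 0.297 CPM in N2 and 1.87 to 3.66 CPM in CB4856, a log2 ratio of -1.84 ± 0.33 (SE; adjusted p 0.00172, edgeR), with no overlap and an adjusted p of 0.0512 with the replicate block (edgeR). The rest of the 8 were nhr-115 (log2 ratio -1.17), nhr-2, nhr-110 (-0.82), nhr-182 (-0.71), nhr-61 (-0.60) and nhr-71 (-0.43). No member had at most 3 counts in every library of one parent and at least 10 in every library of the other. Ranges of CPM did not overlap between the parents for 24 of the 178 members, or 13.5%, against 16.4% of all genes. Of these 16 were higher in N2, or 8.99% of the members against 8.55% of all genes, and 8 in CB4856, or 4.49% against 7.81%.

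**Figure D2:**
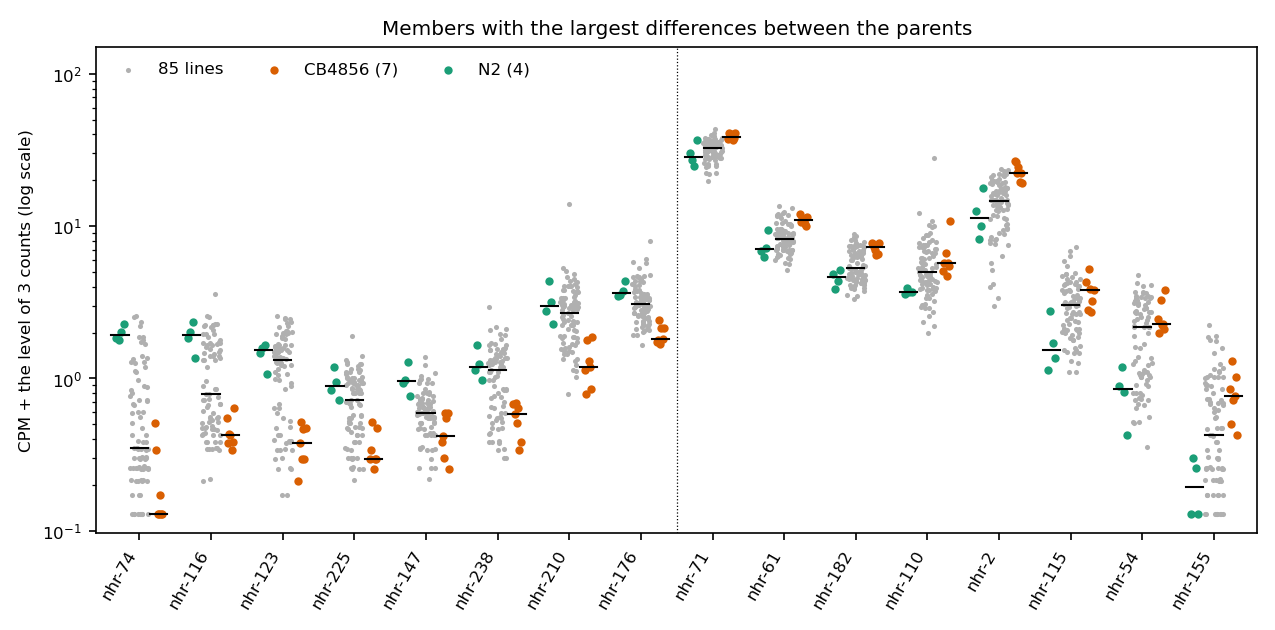
CPM plus the level of 3 counts, on a log scale, for the 8 members with the largest ratio toward N2 (left of the dotted line) and the 8 toward CB4856 (right), in N2 (4 libraries), the 85 lines and CB4856 (7 libraries); points are libraries and bars are medians. The lines spread over both parental ranges for most genes, and 52 of 85 lines sit within or below the CB4856 range for nhr-74.

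The calls were spread over the chromosomes. On chromosome V, 21 members were called, or 18.4% of those tested there, against 33% of all genes there, and 15 of the 21 were higher in N2. Elsewhere 2 of 7 members tested were called on chromosome I, 1 of 10 on II, 2 of 5 on III, 4 of 25 on IV and 2 of 17 on X. The shares of all genes called on these chromosomes were 37.4, 38.7, 33.9, 35.6 and 23.2%. Neighbouring receptors did not always point the same way. Among 80 pairs of described members less than 20 kb apart, both members were called in 4 pairs, 2 in the same and 2 in opposite directions. nhr-94 and nhr-152, whose annotated ends are 14 bases apart, were higher in N2 by 0.87 and 0.66 (log2), and nhr-237 and nhr-238 by 0.88 and 1.38. In contrast nhr-110, 0.748 kb from nhr-237, was higher in CB4856, and nhr-115 was higher in CB4856 while nhr-225, 2.06 kb away, was higher in N2. With the replicate block, nhr-115 and nhr-225 were the pair in which both calls held. Of the 32 calls, 21 were made in each of the 11 fits that left out 1 library, 14 of these also with the replicate block, and 13 also with component 1 as a covariate, among them nhr-74, nhr-116, nhr-123, nhr-176, nhr-155, nhr-2 and nhr-71.

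Genes that work with the receptors were compared as lists of pathway genes. Between the parents 33.9% of all genes were called, 17.9% toward N2 and 16% toward CB4856. Of the other nuclear receptor genes, 2 of 4 were tested and sex-1, which acts in sex determination, was higher in CB4856 (log2 ratio -0.48). In the list for synthesis of the DAF-12 ligand and its cofactor, 7 of 8 were tested; ncr-1, a cholesterol transport gene, and din-1, the DAF-12 corepressor, were higher in CB4856 (-0.64 and -0.25) and none was higher in N2. Among 5 coregulators, cbp-1 and gei-8 were higher in CB4856 (-0.31 and -0.37), while mdt-15, the Mediator subunit that works with NHR-49, had a log2 ratio of -0.12 (adjusted p 0.230, edgeR). Of 9 NHR-49 targets, the fatty acid desaturase gene fat-5 was higher in N2 (1.13). Of 12 genes of propionate breakdown and the methionine cycle, hach-1 and alh-8 were higher in N2 (0.55 and 0.25) and mmcm-1 in CB4856 (-0.18).

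The lines carried a wide range of receptor levels. The SD of log2 CPM among the 85 lines had a median of 0.39 over the 190 described members and 0.39 over all 16570 genes. It was smallest for nhr-49, at 0.11. The largest SDs were those of nhr-74 (1.38), nhr-155 (1.32), nhr-123 (1.11), nhr-116 (1.06), nhr-235 (0.98) and nhr-54 (0.97), and of these all but nhr-235 are also among the members with the largest differences between the parents. Each line has 1 library, so the spread among lines holds the error of a library too. The variance among lines was therefore divided by the pooled variance within the parental strains. The libraries of a parent each come from a different batch, so this divisor holds differences between batches as well as the error of a library. The median of this ratio was 1.28 for the members, with 116 of 190 (61.1%) above 1, and 1.62 for all genes, with 80.5% above 1. Without the CB4856 library of batch 9 the median was 1.92 for the members and 1.75 for all genes. With batch means removed from the lines but not from the divisor, the median was 1.06 for the members and 1.28 for all genes. Without QX571, QX491, QX503 and QX519, a setting chosen after seeing the data, it was 1.02 and 1.41.

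The highest ratio was that of nhr-116, at 9.80. Of the 85 lines, 34 lay at or below the highest CB4856 library for this gene, 18 lay between the parents and 33 lay at or above the lowest N2 library. nhr-123 had a ratio of 5.75, or 9.79 without the CB4856 library of batch 2, with 20 lines at or below the highest CB4856 library, 12 between the parents and 53 at or above the lowest N2 library. For nhr-155, 33 lines lay at or below the highest N2 library, 9 between and 43 at or above the lowest CB4856 library, and 32 lines had at most 3 counts. For nhr-54 these numbers were 30, 11 and 44. For nhr-74, 52 lines lay at or below the highest CB4856 library and 7 at or above the lowest N2 library, with 26 between. nhr-49 had a ratio of 8.77, from an SD of 0.04 within the parental strains and 0.11 among lines, which was 3.04 when total gene counts were used as library sizes and 13.6 without the CB4856 library of batch 2. nhr-104 had a ratio of 7.41, which was 3.66 without the line QX571, where it was at 32.8 CPM against a median of 5.93 CPM. nhr-182 had a ratio of 6.87 and nhr-243 of 6.66.

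The lines also reached beyond both parents. nhr-62, which extends lifespan under dietary restriction, was above every parental library in 49 of 85 lines and below them in 1. Its level was 3.54 to 5.22 CPM in N2, 3.89 to 6.01 CPM in CB4856 and 3.11 to 13.1 CPM in the lines, with a median of 6.17. nhr-62 was also called between batches, with means from 4.15 CPM in batch 2 to 7.61 CPM in batch 6. By comparison nhr-8 was above every parental library in 3 lines and below them in none.

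Batches of lines differed at most receptor genes. Of 184 members tested, 137 differed between the 7 batches (edgeR, adjusted p under 0.05), or 74.5%, against 79.5% of 16030 genes. At an unadjusted p under 0.05 there were 142 members, or 77.2%, against 80.9% of all genes. Batch 9 held the highest mean for 95 of the 190 described members, or 50%, against 19% of all genes. Batches 2 and 3 each held the lowest mean for 68 members, 35.8%, where they held it for 37.6% and 12.2% of all genes. The smallest p-values were those of nhr-21, nhr-6, nhr-117, nhr-42, nhr-173 and nhr-19, and all 6 had their highest mean in batch 9. Without batch 9, nhr-42 missed the threshold (adjusted p 0.0892, edgeR), and the other 5 passed it with smaller differences, nhr-21 at 0.33 in place of 1.38 on the log2 scale between its highest and lowest batch. nhr-21 (chromosome II, 7339229 to 7349133) had means between 7.82 ± 1.36 (SD, n = 19) and 9.64 ± 2.29 CPM (SD, n = 11) in the other batches and 20.9 ± 12.7 CPM (SD, n = 14) in batch 9. Its range there was 7.82 to 46.9 CPM, so the lowest batch 9 lines lay within the range of the other batches (adjusted p 1.08e-13 between batches, edgeR).

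Several of these genes were also high in the batch 9 libraries of the parents. nhr-21 was at 19.1 CPM in N2 of batch 9 and 5.99 to 7.96 CPM in the other N2 libraries, and at 24.2 CPM in CB4856 of batch 9 and 8.01 to 9.33 CPM in the others. nhr-19 was at 22.1 CPM against 6.80 to 8.97 CPM in N2, and at 31.2 CPM against 5.32 to 10.2 CPM in CB4856. nhr-42 was at 9.47 CPM against 5.09 to 5.56 CPM in N2, and at 12.1 CPM against 4.18 to 5.03 CPM in CB4856. Among lines nhr-6 had a mean of 7.23 ± 3.04 CPM in batch 9 (SD, n = 14) and of 2.90 to 4.28 CPM in the other batches. nhr-114 went the other way, with a mean of 38.6 ± 22.6 CPM in batch 9 (SD, n = 14) and means of 70.04 to 91.5 CPM elsewhere (adjusted p 1.60e-07, edgeR). Within batch 9 it ran from 12.8 CPM in QX491 to 77 CPM in QX508, while its lowest value in the other batches was 37.5 CPM.

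**Figure D3:**
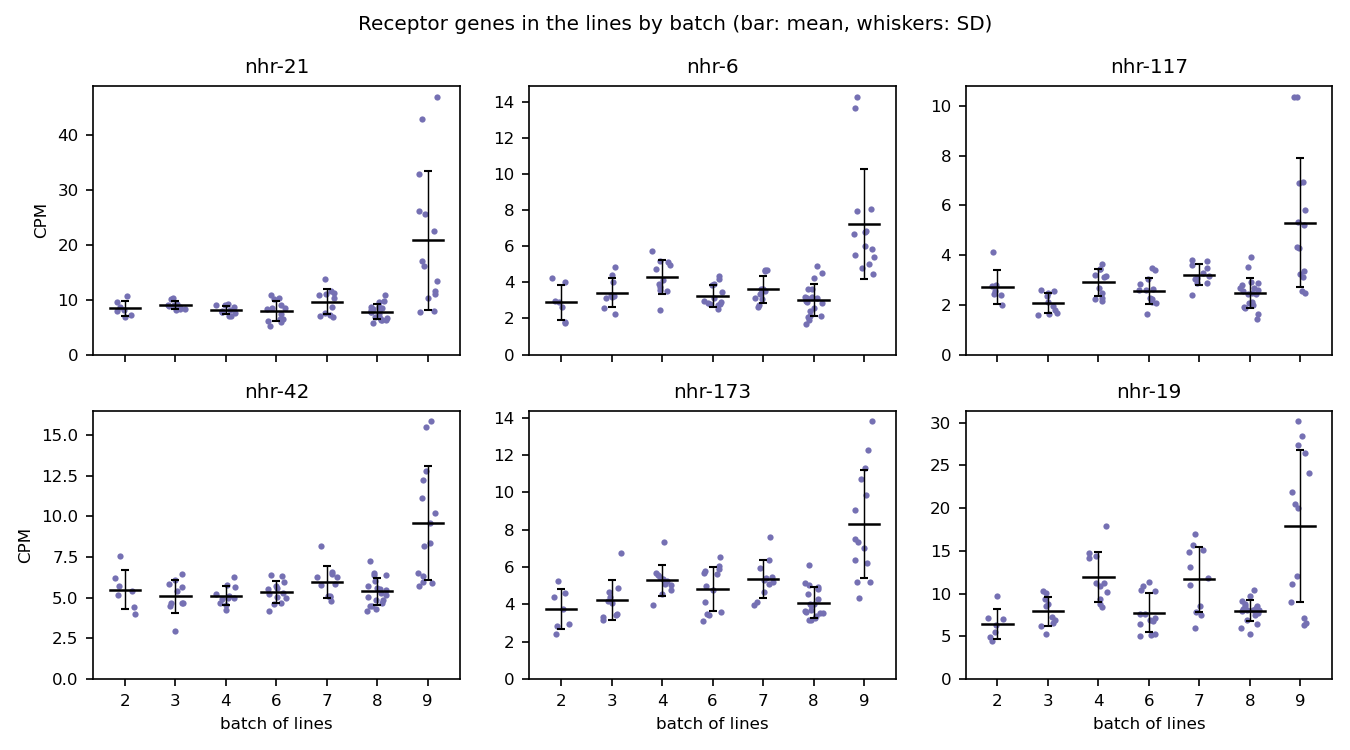
CPM of the 6 members with the smallest p between batches, in the 85 lines by batch; points are lines, bars are means and whiskers are SD. Batch 9 has the highest mean in all 6 panels, for nhr-21 20.9 CPM against at most 9.64 CPM, and its points reach down into the range of the other batches.

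By role, where 79.5% of all genes differed, 7 of the 11 conserved receptors, all 7 of lipid metabolism, all 3 of propionate and methionine metabolism, all 5 of xenobiotic, hypoxia and pathogen responses, and 1 of 3 of development differed between batches. nhr-79 of the lipid list had a mean of 7.72 ± 2.22 CPM in batch 9 (SD, n = 14) and of 4.15 to 5.54 CPM in the others. nhr-14, which acts in iron uptake, was at 26.8 ± 5.97 CPM in batch 9 (SD, n = 14) and at 16.2 to 21.9 CPM in the others. nhr-49 had means of 126 to 140 CPM across the 7 batches, a difference of 0.14 on the log2 scale (adjusted p 0.00781, edgeR). daf-12 did not pass the threshold (adjusted p 0.0664, edgeR).

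Several NHR-49 targets and metabolic genes were far from their usual level in 2 lines of batch 9, QX491 and QX503, some above it and some below. acs-2, an acyl-CoA synthetase gene known to be induced by fasting through NHR-49, had a median of 2.83 CPM among the lines. It was at 1544 CPM in QX491 and 957 CPM in QX503, both of batch 9, where the median was 19 CPM, and the highest value in any other batch was 33 CPM. icl-1, the glyoxylate cycle gene, was at 2802 CPM in QX491 and 2206 CPM in QX503 against a median of 80.7 CPM. fmo-2, a flavin monooxygenase gene, was at 277 and 175 CPM in these libraries against a median of 2.75 CPM, and at 152 CPM in CB4856 of batch 9, and in batch 4 it did not exceed 0.399 CPM in any line. Other targets were low there. fat-7, a fatty acid desaturase gene, was at 8.83 CPM in QX491 and 25.1 CPM in QX503 against a median of 117 CPM, and lbp-8, a lipid-binding protein gene, at 0.0425 and 0.132 CPM against 0.682 CPM. cpt-5 was at 17.3 and 15.4 CPM against 21.5 CPM. The desaturase genes fat-5 and fat-6 were at 18.2 and 644 CPM in QX491 and at 61.3 and 1121 CPM in QX503, against medians of 10.2 and 457 CPM, and hacd-1 was at 260.2 and 459 CPM against 183 CPM. acdh-1, the propionate shunt gene, was at 21.7 CPM in QX491 and 15.4 CPM in QX503 against a median of 394 CPM over all lines and 329 CPM in batch 9. nhr-49 itself was at 153 and 163 CPM in QX491 and QX503 and at 125 to 158 CPM in the other lines of batch 9. Whether these genes have a part in the receptor levels of batch 9 was not tested.

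Single libraries stood apart within the family. QX503 had 46 of the 190 described members (24.2%) more than 2-fold above the median of lines, and QX491 had 36 (18.9%), while 8.06% and 6.95% of all genes were so in these libraries. They shared 32 of these members, among them nhr-21 (42.9 and 46.9 CPM in QX503 and QX491 against a median of 8.47), nhr-99 (15.9 and 11.4 against 2.96), nhr-18 (12 and 11.1 against 2.86) and nhr-35 (43.5 and 53.8 against 21.6). The overlap of QX503 and QX491 over all genes was not counted. These libraries also had the highest intestine index of the 85 lines, the mean centred log2 CPM of ges-1, elt-2, elt-7 and cpr-1, at 1.2 in QX503 and 1.10 in QX491. None of these 4 genes was at 0 in any library. The median of the index was 0.33 in batch 9, the highest of the 7 batches, and -0.28 to 0.15 in the others, and CB4856 of batch 9, at 0.76, was the highest of its strain, while N2 of batch 9, at -0.32, lay within the range of N2. The yolk genes, also expressed in the intestine, were not raised with these markers. Their index, over vit-1 to vit-6, was -0.39 in QX503 and -0.20 in QX491, against a median of -0.0087 over the lines. QX503 had the highest share of multimapping reads of all libraries, 7.46%, and QX491 had 4.65%. The part of these measures in the receptor levels was not tested. In the remaining lines other than QX571 the number of members past 2-fold ran from 0 to 20, with a median of 2. The highest were also in batch 9, QX498 with 20 (10.5%, against 4.76% of all genes) and QX497 with 16 (8.42%, against 6.14%). QX496 of batch 9 and QX562 of batch 4 had 12 (6.32%), against 3.78% and 18.1%. QX492, QX501 and QX519 of batch 9 had 11 (5.79%), against 4.94, 14.7 and 11.9%. The rest of batch 9 had 0 to 5, each below the share of all genes.

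QX571, in batch 7, had 49 members (25.8%) more than 2-fold above the median, against 26.8% of all genes, and was above every other line for 47 (24.7%, against 18.2% of all genes). nhr-195 was at 23 CPM there, where the other lines ran from 0.520 to 2.62 CPM. nhr-109 was at 43.6 CPM, with 3.08 to 9.22 CPM in the other lines. nhr-101 was at 70.9 CPM, with 6.0 to 18.9 CPM in the others, and nhr-5 was at 55.1 CPM, with 4.86 to 16.5. This library had the highest component 1 score of the lines, 78.3, and the lowest yolk index, -1.65, and their part in these values was not tested. acs-2 was at 4.93 CPM in it. QX571, with 49 of the 190 members past 2-fold, and QX503, with 46, shared 13 of them. The overlap over all genes was not counted, so the 13 are not read as a likeness of these libraries.

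**Figure D4:**
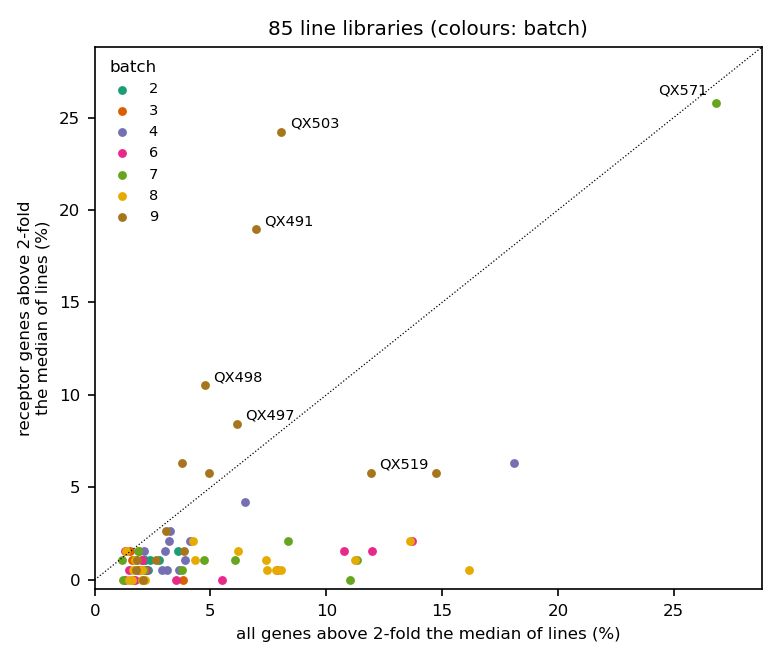
Share of the 190 described members (vertical) and of all 16570 genes (horizontal) that were more than 2-fold above the median of lines, in percent, for each of 85 lines coloured by batch; the dotted line marks equal shares. QX503 (24.2% against 8.06%) and QX491 (18.9% against 6.95%) lie above the line, and QX571 (25.8% against 26.8%) lies near it.

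Receptor levels were then set against an index of moulting, since moult genes varied widely among the lines. The moult index is the mean log2 CPM of 10 moult and cuticle genes (mlt-8, mlt-10, mlt-11, noah-1, noah-2, bli-1, bli-2, bli-5, nekl-2 and nas-37), each centred over the lines, and it ran from -1.47 to 1.48. With batch in the model, 62 of 185 members changed with the index (edgeR, adjusted p under 0.05), or 33.5%, against 58.3% of 16138 genes. At an unadjusted p under 0.05 there were 72, or 38.9%, against 62.1% of all genes. Of the 62 members, 45 rose with the index (24.3%, against 31.3% of all genes) and 17 fell (9.19%, against 27.1%). Scaled with RLE size factors in edgeR, 30 rose and 18 fell, with DESeq2 30 rose and 19 fell, and without the batch term 27 rose and 38 fell. These fits called 58.2, 58.7 and 65.3% of all genes. Without the single library of QX571, a setting chosen after seeing the data, 24 rose and 18 fell, while 55.9% of all genes were called. With the sperm index, from 9 sperm genes, as a further covariate, 7 of 188 members remained past the threshold, 6 of them among the 62. That fit called 13.6% of all genes.

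Conserved receptors were among the risers, and 7 of the 11 rose and none fell, where 31.3% of all genes rose and 27.1% fell. nhr-41, related to the vertebrate TR2 and TR4 receptors, rose by 0.36 ± 0.05 log2 per unit of the index (SE; adjusted p 8.53e-09, edgeR), the smallest p in the family. nhr-91, related to the vertebrate GCNF receptor, rose by 0.33 ± 0.06 (adjusted p 1.32e-06, edgeR). nhr-85, the worm Rev-erb homolog, which acts in the timing of larval development, rose by 0.43 ± 0.08 (adjusted p 8.36e-06, edgeR), though 33.2% of its exon bases overlap those of npr-14. The others were nhr-67 (slope 0.41), nhr-25 (0.27), nhr-64 (0.10) and daf-12 (0.08). The last 2 missed the threshold with RLE size factors (adjusted p 0.106 and 0.0797, edgeR) and in DESeq2 (adjusted p 0.100 and 0.0784). They also missed it without the 2 lines farthest from the median index (adjusted p 0.103 and 0.104, edgeR). Without the batch term the slope of nhr-64 was 0.0030 (adjusted p 0.958, edgeR). In the 85 lines nhr-91 ran from 1.77 to 6.27 CPM with a median of 3.02, and nhr-25 from 0.681 to 5.08 CPM with a median of 2.06. The other risers among the 6 smallest p-values were nhr-94 (0.40), nhr-97 (0.11) and nhr-234 (0.52).

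Of the 7 receptors of lipid metabolism, 3 fell with the index and none passed the test as rising, against 27.1% and 31.3% of all genes. nhr-49 fell by 0.09 ± 0.02 log2 per unit (SE; adjusted p 7.11e-06, edgeR), within a narrow range of 112 to 163 CPM. nhr-66 fell by 0.14 ± 0.03 (adjusted p 2.37e-05, edgeR) and nhr-13, another partner of NHR-49, by 0.17 ± 0.04 (adjusted p 0.000843, edgeR). The steepest fall in the family was that of nhr-2, by 0.43 ± 0.09 (adjusted p 5.92e-05, edgeR), which ran from 2.87 CPM in QX512 to 23.5 CPM in QX560. nhr-71 fell by 0.18 ± 0.03 (adjusted p 5.30e-06, edgeR), nhr-274 by 0.13 and nhr-20 by 0.17. Of the other lists, nhr-14 rose and nhr-86 fell among the xenobiotic receptors, nhr-40 was called as rising among those of development, and none of the 3 propionate and methionine receptors passed (edgeR, smallest adjusted p 0.571). nhr-40 missed the threshold in 14 of the 17 alternative fits, with adjusted p-values of 0.148 with RLE size factors and 0.273 without batch 9 (edgeR), and nhr-14 missed it without batch 8 (0.181, edgeR). Of the 62 members, 25 were called without each batch in turn, among them nhr-41, nhr-91, nhr-85, nhr-25, nhr-67, nhr-2, nhr-49, nhr-66 and nhr-71. Without batch 6 the count was 36, without batch 7 it was 40 and without batch 8 it was 39. These fits called 52.4, 54.2 and 49.6% of all genes.

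**Figure D5:**
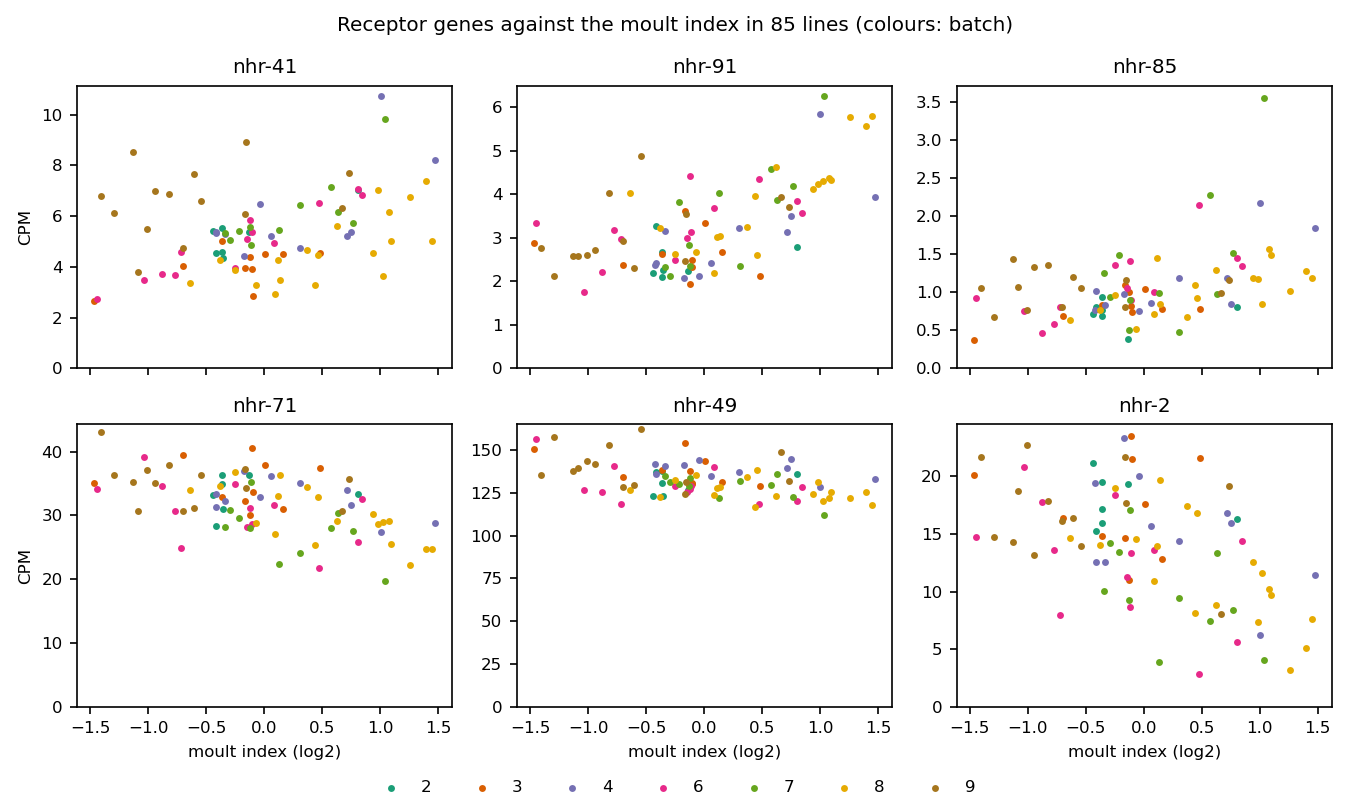
CPM of 3 members that rose with the moult index (top) and 3 that fell (bottom) in the 85 lines, against the index in log2 units; colours mark the batch. nhr-91 ranges from 1.77 to 6.27 CPM and nhr-2 from 2.87 to 23.5 CPM.

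Among the partners of the receptors, 4 of 7 genes of DAF-12 ligand synthesis and its cofactor rose with the index and none fell. Over all genes 31.3% rose and 27.1% fell. daf-9, which encodes the cytochrome P450 that makes the DAF-12 ligands, rose by 0.33 ± 0.09 log2 per unit (SE; adjusted p 0.000679, edgeR). ncr-2, a cholesterol transport gene, rose by 0.77 ± 0.13 (adjusted p 1.46e-06, edgeR) and was at 56.2 CPM in QX571 against a median of 3.74. None of the 9 NHR-49 targets passed the test for the index, with a smallest adjusted p of 0.134 for fat-7 (edgeR). Of the 5 coregulators, smo-1 and ubc-9, which act in SUMO modification, fell by 0.16 and 0.19.

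For some members the difference between the parents and the slope on the index can be set side by side. The moult index was -1.38 to 1.46 in N2 and -0.91 to 0.72 in CB4856, so the ranges overlapped, unlike the sperm index and component 1 in all N2 libraries but that of batch 9. With the moult index as a covariate 30 of 178 members differed between the parents, against 30.8% of all genes. nhr-2 was higher in CB4856 and fell with the index, nhr-71 did the same, and nhr-94 was higher in N2 and rose. nhr-74, nhr-116, nhr-123 and nhr-54, with large differences between the parents, did not pass the threshold for the index, with adjusted p-values of 0.375, 0.137, 0.501 and 0.582 in edgeR. In contrast nhr-155, with the largest ratio toward CB4856, was among the 25 members called on the index without each batch in turn.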

How the data were processed

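The authors deposited raw counts of reads for each gene, 1 file a library, with no normalisation, in the 4-column layout of STAR's gene counting. The submitters' processing notes name STAR 2.73a, FastQC, DESeq2 and the WBcel235 build, and the role of each tool is not given in the sources used here. The unstranded column was used, because both strand columns were near equal (ratio 0.957 to 1.04). Reads on several genes or places, outside genes or unmapped, a mean of 5.24% multimapping, 0.885% ambiguous, 0.741% outside genes and 0.563% unmapped, stayed out of library sizes, so reads shared by near-identical paralogs or overlapping genes were not counted. Of 46904 identifiers, 46817 matched the Ensembl WBcel235 annotation, which gave symbols and positions.

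Groups came from the strain labels. edgeR 4.0.16, under R 4.3.3, was fitted to all genes passing filterByExpr (TMM, robust dispersions, quasi-likelihood test, two-sided, Benjamini-Hochberg over all genes tested, threshold 0.05): N2 against CB4856 in their 11 libraries, batches among lines, and the slope on the moult index with batch as a term. CPM are counts scaled to a total of 1e+06 over all genes of a library, and log2 CPM used a prior count of 2. Component 1 is the first principal component of the lines over the 2000 most variable genes, 21.3% of their variance. An index is the mean centred log2 CPM of its marker genes. The SE of a log2 ratio was derived from the ratio and its test statistic. The scripts were tested on simulated data. DESeq2 1.42.0 was an alternative.

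The batch number in the titles marks a shared batch and so pairs the parental libraries of 4 batches. Deviations of a pair from their strain means correlated across genes by 0.299, 0.081, 0.569 and 0.147 in batches 3, 6, 8 and 9.

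The members and gene lists, and some alternatives, were chosen with earlier results of these data known. Named were the members of the role lists, the 8 largest called ratios per direction between parents, the 6 smallest p-values between batches and per direction on the index, the 6 largest SDs and variance ratios among lines, and the 6 highest levels per kilobase. Others named in the text were chosen after their values were seen. A gene with an nhr- symbol outside the members is not reported here.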

Additional observations from a re-analysis of the deposited data

Results flagged for a closer look

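In groups of 4 N2 or 7 CB4856 libraries, 16 groups over the named members held a library that stood apart from the rest by Dixon's 95% criterion and 98 did not. Chance meets it in about 1 of 20 groups, or 5.7 of these, if groups are independent and members are not chosen from the same data. Neither held here, so the 16 cannot be judged against that number. The groups share the same libraries. The named members include the 6 with the smallest p between batches of lines, all with their highest mean in batch 9. Of the 16 groups, 9 were in CB4856 of batch 9 and 4 in N2 of batch 9. In both strains batch 9 was high for nhr-19 (22.1 CPM in N2 and 31.2 CPM in CB4856), nhr-21 (19.1 and 24.2 CPM) and nhr-42 (9.47 and 12.1 CPM). In N2 it was also high for nhr-6, at 7.98 CPM against 2.10 to 2.95 CPM. In CB4856 it was high for nhr-110 (10.7 CPM against 4.60 to 6.52), nhr-117 (5.24 CPM against 1.78 to 2.82), nhr-173 (9.25 CPM against 3.96 to 5.2), nhr-274 (49.9 CPM against 39.4 to 43.1) and nhr-64 (11.7 CPM against 5.52 to 6.30), and low for nhr-114 (21.7 CPM against 68 to 88.6). The CB4856 library of batch 2 was high for 2 conserved receptors of development, nhr-25 (6.93 CPM against 1.41 to 2.82) and nhr-67 (1.14 CPM against 0.295 to 0.458). The CB4856 library of batch 4 was high for nhr-68 (42.1 CPM against 23.4 to 29.7).

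Of the 79 members under the count minimum, 49 had more than 3 counts in at least 1 library, above the limit that a count of 0 allows. Among them 11 reached 10 counts in 1 to 3 libraries, the highest being nhr-113 with 32 counts in QX501. Of the 79, 4 had 0 counts in every library.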

How the results depend on the processing

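The 32 calls between parents became 15 with the replicate block, 19 when a mean log2 CPM of at least 1 was required, which leaves fewer members to test, and 50 without both libraries of batch 9, an alternative added after seeing the data. These settings called 14.9, 32.1 and 47.9% of all genes. Leaving out 1 library gave 24 to 45, the highest without CB4856 of batch 9, and called 21.5 to 43.2% of all genes. The other settings gave 22 to 34, and 16.9 to 35.8% of all genes. The 137 calls between batches stayed between 105 and 148 in every setting run, with 46.3 to 87.3% of all genes called. The 62 calls on the index became 7 with the sperm index as a covariate, 36 without batch 6, 40 without batch 7, 39 without batch 8 and 40 without QX571, QX491, QX503 and QX519, also an added alternative, and 42 to 80 otherwise. Of all genes 13.6, 52.4, 54.2, 49.6 and 51.6% were called in these settings, and 33.3 to 65.3% otherwise. The median variance ratio was 1.23 to 1.92 when 1 parental library was left out and 1.02 to 1.28 otherwise. For each of these changes the cause was not tested.

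Log2 ratios between parents turned sign with the replicate block for nhr-6 (-0.14) and nhr-67 (0.13). With component 1 as a covariate they turned for nhr-25 (-0.36), nhr-69 (-0.028), nhr-91 (-0.14), daf-12 (-0.12), nhr-79 (0.15), nhr-68 (-0.059) and nhr-114 (-1.07), and with the moult index for nhr-25 (-0.14) and nhr-114 (-0.47). Leaving out 1 library gave ranges across 0 for nhr-6 (-0.39 to 0.44), nhr-25 (-0.14 to 0.57), nhr-67 (-0.37 to 0.23), nhr-79 (-0.53 to 0.027), nhr-68 (-0.0066 to 0.27) and nhr-114 (-0.14 to 0.44), and nhr-6 was at -0.36 without batch 9. None of these 9 genes was called in the comparison as reported (edgeR, adjusted p 0.262 to 0.882). On the index, nhr-64 (-0.0060) and nhr-40 (-0.0016) turned with the sperm index. With component 1 as a covariate 20 of the 32 calls between the parents held. Those of nhr-48, nhr-66, nhr-76, nhr-80, nhr-110 and nhr-147 were among the calls lost. The sperm index as a covariate ended the index calls of nhr-2, nhr-13, nhr-14, nhr-20, nhr-66, nhr-67, nhr-71, nhr-86, nhr-94, nhr-97, nhr-234 and nhr-274, among others. The replicate block ended 17 of the 32 calls, among them 12 named members: nhr-20, nhr-48, nhr-54, nhr-61, nhr-66, nhr-76, nhr-80, nhr-86, nhr-94, nhr-104, nhr-110 and nhr-243.

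Depth limits members below about 1 CPM, where a library holds few counts. The labels give no genotypes of the lines, and none were used here.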

Other observations

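Some members outside the role lists were far from the other lines in single libraries, and are named here after their values were seen. In QX571 nhr-87 was at 24.2 CPM against 2.12 to 5.56 CPM in the other lines, nhr-177 at 14.4 CPM against 1.84 to 4.47 CPM, and nhr-50 at 13.7 CPM against 1.06 to 5.41 CPM. In QX503 and QX491 nhr-206 was at 5.4 and 3.99 CPM against a median of 0.718 CPM over the lines, and nhr-134 at 16.5 CPM in each against a median of 5.2 CPM. nhr-271 was at 1.49 and 1.23 CPM in them against a median of 0.128 CPM, and nhr-31 at 31.2 and 27.4 CPM against a median of 60.7 CPM. Each line has 1 library, so that these values have no replicate check.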
